A study of Mus musculus with 9 samples.

Results

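The regions described here are the broad H3K4me3 regions of the Kdm6a wild-type (WT) line in a study of mouse pancreatic cancer cell lines. They are the 960 rows of the H3K4me3 list of the male WT line that lie on chromosomes 1 to 19 and span 10 kb or more. They were taken from 15467 autosomal rows, in a list of 15975 rows in all. They were chosen by their width in the WT list, so their width and read density in WT are given as a description. The other 14507 autosomal rows, all under 10 kb, are called narrower regions, and the 6783 of them between 5 and 10 kb are set beside the broad ones where width itself bears on a value.

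Trimethylation of lysine 4 of histone H3 marks the start sites of active and poised genes, usually as a narrow zone around a promoter. In a small part of promoters the mark spreads over many kilobases into the gene, and such broad domains are known in mammalian cells for genes of cell identity and for high transcription. H3K27ac marks active promoters and enhancers and is laid down on the residue that H3K27me3 would occupy. H3K27me3 is written by Polycomb repressive complexes at silenced genes. Kdm6a, on the X chromosome, encodes an enzyme that takes H3K27me3 off again, and its product is also a subunit of complexes that methylate lysine 4 at enhancers.

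The 3 marks were profiled by ChIP-seq, the sequencing of DNA bound to an immunoprecipitated histone mark, in a female KO line and a male KO line, both without Kdm6a, and in a male WT line. The KO lines derive from Kdm6a-null pancreatic cancer of mice, and the label of the WT line gives pancreas as its source. All lines have a mixed C57BL/6-SV129 strain background, were grown in F12/DMEM with EGF and were not treated. No label gives the alleles, the Cre driver, the driver mutation of the tumours or the age of the mice. Each mark and line has 1 library, 9 in all, so the spread between replicates is unknown, no p-value was computed, and each value compares libraries, not genotypes. No female WT line was analysed here, so sex and Kdm6a loss cannot be told apart in the female KO line. Positions are 1-based on the mouse build mm9. Values are from the authors' lists of enriched regions, in which every region has a position and a whole number, taken here as its reads. Between 2396174 and 18507923 reads lay in the regions of a library. Intervals are 95% Wilson intervals over regions. They cover counting error only, and regions are not replicates of a line.

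The 960 broad regions had a median width of 12.0 kb, with a 25th percentile of 10.6 kb, a 75th percentile of 14.2 kb and a longest region of 48.0 kb. A total of 196 spanned 15 kb or more. Together they covered 12.7 Mb, which is 15.9% of the autosomal H3K4me3 length in WT, and held 18.7% of its reads. Their read density had a median of 184 reads per kb, against 126 in narrower regions and 177 in regions of 5 to 10 kb. Regions under 2 kb had a median of 39.0 reads per kb. Broad regions were not uniformly dense. In 836 the density reached the median of all autosomal rows, 132 reads per kb, and in 124 it did not. At the width limit, the 73 regions of exactly 10 kb had a median of 188 reads per kb and the 71 regions of 9.8 kb a median of 197. The first of each by position lie on chromosome 1, from 62747601 to 62757600 with 2342 reads and from 74547801 to 74557600 with 2281 reads.

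The 3 H3K4me3 lists held different numbers of wide regions. The female KO list had 2129 autosomal regions of 10 kb or more and the male KO list 382, against 960 in WT. These were 15.7 and 2.34% of the KO rows and 6.21% of the WT rows. Reads in H3K4me3 regions had the same order, 16144388 in the female KO and 7432359 in the male KO library, against 12828427 in WT. Within each list, regions of 10 kb or more were denser than the rest, by 1.49 times in the female KO list, 1.38 times in the male KO list and 1.46 times in the WT list (ratios of median reads per kb).

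**Figure D1:**
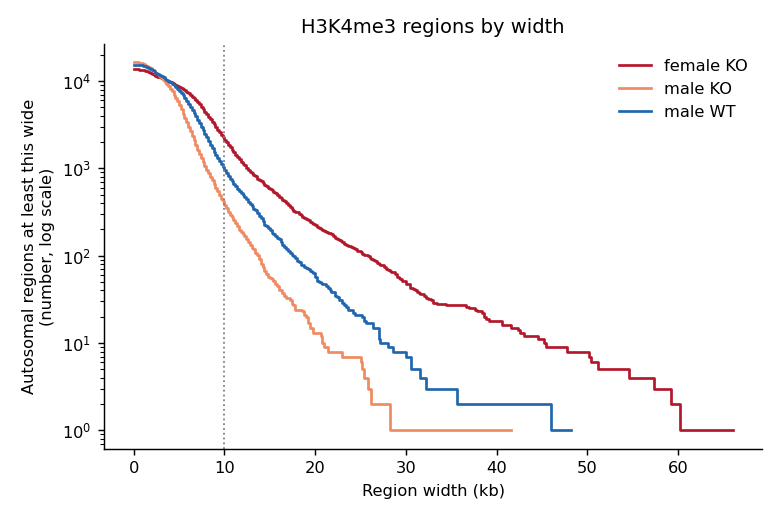
Number of autosomal H3K4me3 regions (vertical axis, log scale) at least as wide as the width on the horizontal axis, in kb, for the female KO, male KO and male WT lists. The dotted line marks 10 kb, where the lists hold 2129, 382 and 960 regions, and at greater widths the female KO curve stays highest and the male KO curve lowest.

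Nearly all broad WT regions also carried H3K4me3 in the KO lines. H3K4me3 covered at least 50% of the length of 926 of them in female KO cells (96.5%, 95.1 to 97.5%) and of 904 in male KO cells (94.2%, 92.5 to 95.5%). It covered less than that in 34 and 56 of them, which is 3.54 and 5.83%, against 19.8 and 16.6% of all autosomal WT rows. No H3K4me3 at all was found at 14 broad regions in female KO cells (1.46%) and at 4 in male KO cells (0.417%), against 17.9 and 13.2% of all rows. Regions of 5 to 10 kb were close to the broad ones, with 3.8% in female KO cells and 4.67% in male KO cells below 50%. The bases covered gave the same picture. In female KO cells 91.7% of the bases of broad regions and 92.6% of those of 5 to 10 kb regions lay under H3K4me3, and in male KO cells 77.2 and 77.1%. Over the covered bases the density of broad regions was 1.45 times the list median in female KO cells, 1.33 times in male KO cells and 1.39 times in WT. For 5 to 10 kb regions these values were 1.27, 1.33 and 1.34, so the 2 classes were alike in male KO cells and close in WT.

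How wide the KO region was at the same place differed between the lines. A KO region of 10 kb or more met 803 of the 960 in female KO cells (83.6%, 81.2 to 85.9%) and 329 in male KO cells (34.3%, 31.3 to 37.3%), against 17.3 and 2.66% of all autosomal WT rows. Among the 196 regions of 15 kb or more the shares were 90.8 and 61.7%. The numbers of wide regions in the 2 KO lists differ in the same order, and the members were chosen for their width in WT, so these shares do not show a difference in breadth between the lines. Each KO list was then represented by about as many of its widest rows as there are members. These were 963 rows of 12.6 kb or more in female KO cells and 965 rows of 8 kb or more in male KO cells. Each list met 560 members (58.3%), but not all the same ones. Both lists met 393 members and neither met 233. The matching share of all autosomal WT rows was not computed. Read from the KO side, 782 of the 2129 wide female KO regions met a broad WT region (36.7%), 987 met 1 narrower WT region and no broad one, 349 met 2 or more narrower ones and no broad one, and 11 met no WT region. Of the 382 wide male KO regions 333 met a broad WT region (87.2%) and none lay outside the WT list.

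Broad regions were often held in several pieces in male KO cells. There 297 of the 960 met 2 or more H3K4me3 regions (30.9%, against 3.17% of all rows), and in female KO cells 48 did (5.0%, against 0.983% of all rows). Of the 5 to 10 kb regions, 2.40% met 2 or more regions in male KO cells and 1.12% in female KO cells, and a longer region has more room for a gap. The middle 200 bp of the broad regions were without H3K4me3 in 95 cases in male KO cells (9.90%, against 14.9% of all rows) and in 30 in female KO cells (3.13%, against 18.7% of all rows). Of the 5 to 10 kb regions 2.29% lacked it there in male KO cells and 2.90% in female KO cells, so in female KO cells the broad regions were close to that class. Reads in H3K4me3 regions were fewest in the male KO library, and the part of depth in these gaps was not tested.

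The widest member lay at chr10:79596001-79644000. It held 9425 reads over 48.0 kb in WT, and H3K4me3 covered 48.0 kb of it in female KO cells in 1 region and 45.0 kb in male KO cells in 2. The next, at chr7:148619201-148665000, was covered over its full 45.8 kb in female KO cells and over 42.6 kb in 2 pieces in male KO cells. At chr19:7038601-7074000 male KO cells covered 31.0 of 35.4 kb in 4 pieces, the widest being 14.4 kb, while a single female KO region of 42.4 kb ran past both lengths. The members at chr2:115871401-115903400 and at chr8:87486601-87518000 were covered over 30.8 and 31.4 kb in female KO cells and over 28.0 and 29.0 kb in male KO cells. H3K4me3 thus covered at least 87.5% of each of the 5 widest members in both KO lists. H3K27ac lay over at least 25.8 kb of each in every line, and only the widest carried H3K27me3, over 4.0 kb in female KO cells, 2.0 kb in male KO cells and 1.6 kb in WT.

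Density was highest at chr10:98722201-98732200, with 3744 reads over 10 kb or 374 reads per kb in WT. The next by density were at chr9:56917201-56927200 at 362 reads per kb, chr2:25116801-25131000 at 359, chr19:5722001-5733000 at 351 and chr3:89189601-89202200 at 347. All of these were covered over their full length by H3K4me3 in female KO cells. The male KO line covered between 9.8 and 14.2 kb of each. H3K27me3 was present at 1 of them, over 0.4 kb of the region on chromosome 19 in female KO cells.

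A small set of members had little H3K4me3 in either KO line. H3K4me3 covered under 50% of 17 broad regions in both lists, 1.77% of the members, against 11.6% of all autosomal WT rows and 1.89% of the 5 to 10 kb regions. The WT list takes part in both comparisons, so this count is not evidence of a joint change. The 17 fell into different patterns of the other marks. In 8 of them H3K27ac covered at least 50% in all 3 lines, a state of 51.9% of all rows. In 4 it covered under 50% in both KO lines and at least 50% in WT, against 2.06% of all rows. In WT it covered at least 91.3% of all 17. H3K27me3 was present at 11 in female KO cells (64.7%) and at 4 in male KO cells (23.5%), and at none of the 17 in WT. Of the 128 regions of 5 to 10 kb under 50% in both KO lists, 31.3% had it in female KO cells, 10.2% in male KO cells and 1.56% in WT. Of the 17, 6 carried no H3K27me3 in any line, against 71.6% of all rows. Density in WT was under the median of all rows in 11 of the 17, against 124 of the 960 members.

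**Figure D2:**
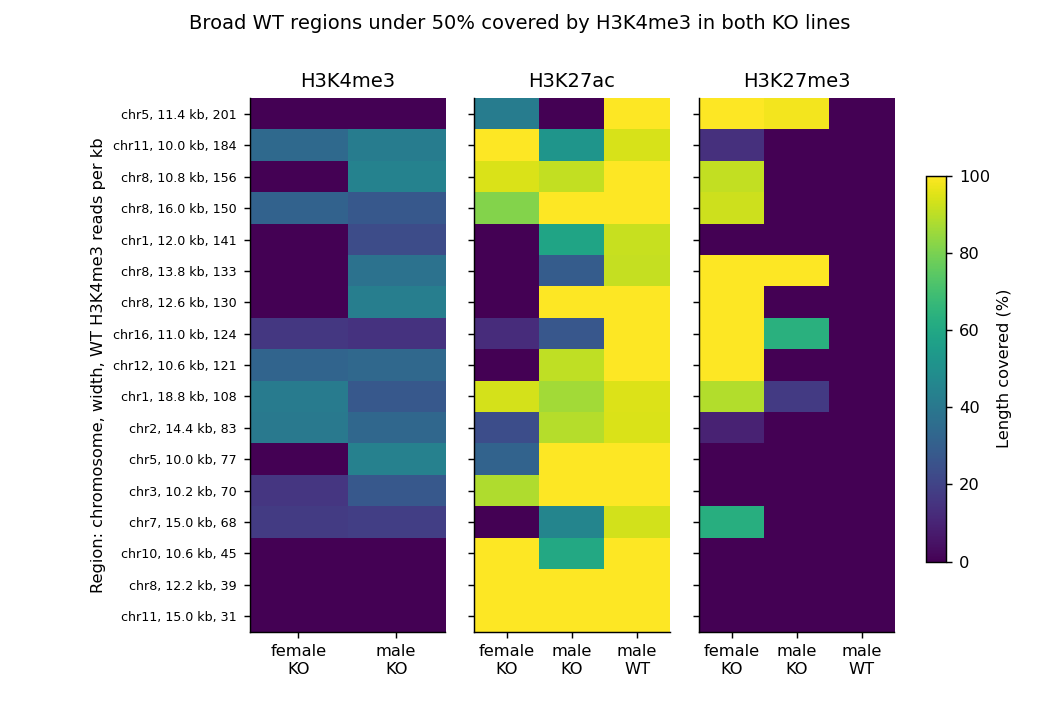
Share of the length covered (colour, 0 to 100%) by H3K4me3, H3K27ac and H3K27me3 in female KO, male KO and WT cells for the 17 broad WT regions with under 50% H3K4me3 in both KO lines, 1 per row, ordered by WT reads per kb. The bottom rows have H3K27ac in all 3 lines without H3K27me3, and the top row on chromosome 5 has H3K27me3 over nearly its full length in both KO lines and none in WT.

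The region of this set with the highest WT density lay at chr5:115412401-115423800, with 2293 reads over 11.4 kb or 201 reads per kb. H3K4me3 was absent from it in both KO lists. H3K27me3 covered 11.4 kb in female KO cells and 11.2 kb in male KO cells, against none in WT, and H3K27ac covered 4.8 kb in female KO cells and none in male KO cells, against 11.4 kb in WT. Each of the 3 marks had a different extent here in WT from that in either KO library. The region at chr16:92493401-92504400 was similar. H3K4me3 covered 1.8 kb of its 11.0 kb in female KO cells and 1.6 kb in male KO cells. H3K27me3 covered 11.0 and 7.0 kb there, against none in WT, and H3K27ac 1.4 and 3.0 kb, against 11.0 kb in WT. Another region, at chr8:128431401-128445200, had H3K27me3 over its full 13.8 kb in both KO lines and none in WT. Its H3K4me3 was absent in female KO cells and covered 5.2 kb in male KO cells, and its H3K27ac was absent in female KO cells and covered 4.0 kb in male KO cells, against 12.6 kb in WT.

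The 3 members with no H3K4me3 in either KO list other than the one on chromosome 5 were of another kind. They lay at chr11:72278801-72293800, chr8:3407201-3419400 and chr10:31310801-31321400, with 31.3, 38.7 and 45.5 reads per kb in WT. Those densities are the lowest among the named members and lie well under the median of all rows. H3K27ac covered each of them fully in female KO cells and in WT, and over 15, 12.2 and 6.4 kb in male KO cells. No H3K27me3 lay on them in any line.

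Broad regions were places of H3K27ac in every line. H3K27ac covered at least 50% of 942 of them in female KO cells (98.1%, 97.1 to 98.8%), of 908 in male KO cells (94.6%, 93.0 to 95.8%) and of 834 in WT (86.9%, 84.6 to 88.9%). Over all autosomal WT rows the shares were 78.3, 76.1 and 60.6%. For the 5 to 10 kb regions they were 93.2% in female KO cells, 86.5% in male KO cells and 68.9% in WT. Regions on either side of the width limit were close. The shares were 98.6, 95.9 and 84.9% for the 73 regions of exactly 10 kb. For the 71 regions of 9.8 kb they were 94.4, 93.0 and 85.9%. In 802 broad regions H3K27ac covered at least 50% in all 3 lines (83.5%), against 51.9% of all rows. Only 10, 2 and 3 broad regions had no H3K27ac at all in the lists of female KO, male KO and WT cells, against 19.7, 16.5 and 24.9% of all rows. Among 5 to 10 kb regions 4.02, 2.96 and 7.55% had none, and a wider region meets any overlap more easily. Broad regions also had dense H3K27ac. Over the covered bases its reads per kb were 1.69, 1.66 and 1.45 times the median of the lists of female KO, male KO and WT cells, against 1.24, 1.30 and 1.19 times at narrower regions. At 5 to 10 kb regions the values lay between, at 1.33, 1.45 and 1.27 times.

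The contrast with 5 to 10 kb regions depended on the measure. At the middle 200 bp of a region, a window of the same size for all widths, H3K27ac was present at 98.1% of broad regions in female KO cells, 92.9% in male KO cells and 85.3% in WT. At 5 to 10 kb regions the shares were 95.5, 95.3 and 88.7%, so that in the male lines the broad regions were below them. In WT 237 broad regions met 2 or more H3K27ac regions (24.7%), against 2.68% of all rows and 2.42% of the 5 to 10 kb regions, and the middle of a broad region can fall between such pieces.

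**Figure D3:**
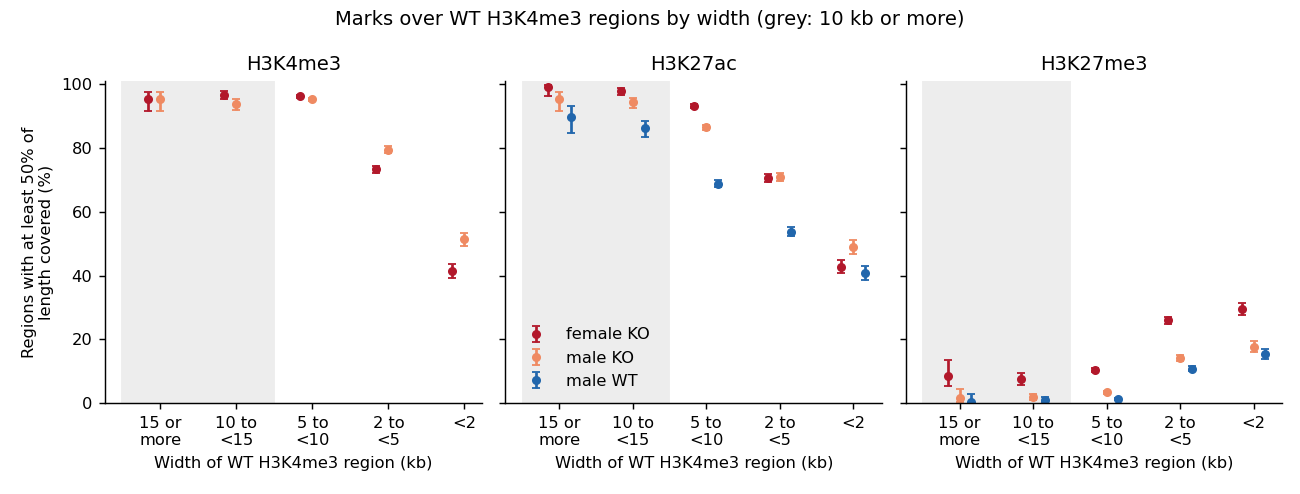
Share of WT H3K4me3 regions (vertical axis, %) with at least 50% of their length under H3K4me3, H3K27ac or H3K27me3 of female KO, male KO and WT cells, by width class of the WT region in kb, with 95% Wilson intervals. H3K27ac shares are highest and H3K27me3 shares lowest in the grey zone of 10 kb or more, and the H3K27me3 shares are larger in female KO cells than in the other lines at every width.

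H3K27ac covered at least 50% of more broad regions in each KO line than in WT, as it did over all H3K4me3 regions. It covered at least 50% in female KO cells and under 50% in WT at 124 broad regions (12.9%, against 23.5% of all rows). It covered at least 50% in male KO cells and under 50% in WT at 95 (9.90%, against 20.4% of all rows). Only 126 broad regions were under 50% in WT, which bounds both counts. H3K27ac covered under 50% in female KO cells and at least 50% in WT at 16 broad regions (1.67%, against 5.81% of all rows). It covered under 50% in male KO cells and at least 50% in WT at 21 (2.19%, against 4.98% of all rows). The autosomal H3K27ac lists covered 198 Mb in female KO cells and 145 Mb in male KO cells, against 109 Mb in WT, and the part of list length in these shares was not tested. In 5 broad regions H3K27ac was at least 50% in WT and under 50% in both KO lines (0.521%), against 2.06% of all rows, in comparisons that share the WT list. Of the 5 members with the largest shortfall of H3K27ac in both KO lines, 3 are the regions on chromosomes 5, 16 and 8 given above. The other 2 lay at chr7:147275201-147290200, where H3K27ac covered none of the 15 kb in female KO cells and 6.8 kb in male KO cells, against 14.0 kb in WT, and at chr1:196838401-196850400, where it covered none of the 12.0 kb and 7.0 kb, against 11.0 kb in WT.

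H3K27ac often ran past the ends of a broad region. Where H3K27ac was present, its outer borders lay in sum 5 kb or more outside the H3K4me3 borders in 620 broad regions in female KO cells (65.3%), in 334 in male KO cells (34.9%) and in 225 in WT (23.5%). Over all rows with H3K27ac these shares were 46.1, 22 and 17.9%, and for 5 to 10 kb regions 38.7, 15.3 and 9.60%. The shares did not grow steadily with width, since regions under 2 kb had 67.7, 38.0 and 37.9%, each above that of the broad regions. At 9.9 kb outside the border, 46.4% of the ends of broad regions lay under H3K27ac in female KO cells, 32.6% in male KO cells and 26.3% in WT, against 25, 17.3 and 13.4% for 5 to 10 kb regions. At the same distance, 22.2% of the ends of broad regions lay under H3K4me3 in female KO cells and 15.3% in male KO cells, against 11.6 and 7.92% for 5 to 10 kb regions. In WT, where a region ends at its own border, other H3K4me3 regions lay there at 18.8% of the ends of broad regions and 9.78% for 5 to 10 kb regions. For H3K27ac and for H3K4me3 of the KO lists, coverage by a region at the member or by a neighbour was not separated.

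**Figure D4:**
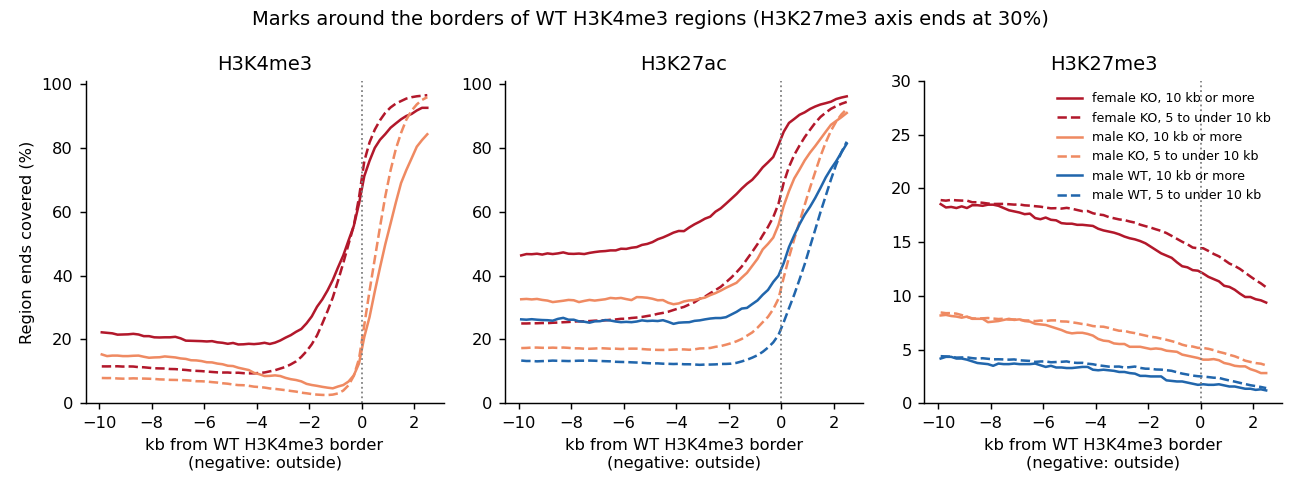
Share of region ends (vertical axis, %) that lie under H3K4me3, H3K27ac or H3K27me3 at each distance in kb from the WT H3K4me3 border, for regions of 10 kb or more (solid) and of 5 to 10 kb (dashed) in female KO, male KO and WT cells. H3K27ac outside the border is higher for broad regions in each line, and H3K27me3 declines from outside to inside at both widths.

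The regions with the most H3K27ac reads were also sought as stitched domains, in which H3K27ac regions within 12.5 kb are joined and the 500 joined domains with the most reads are kept per line. These domains met 364 broad regions in female KO cells (37.9%, 34.9 to 41.0%), 317 in male KO cells (33.0%, 30.1 to 36.1%) and 306 in WT (31.9%, 29.0 to 34.9%). They met 13, 10.7 and 9.69% of all rows, 11.4, 9.17 and 8.22% of narrower regions, and 13.2, 10.4 and 8.45% of 5 to 10 kb regions. A wider region meets a domain more easily by placement alone, and that part was not tested.

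H3K27me3 was rare on broad regions. Any overlap was found at 207 of them in female KO cells (21.6%, 19.1 to 24.3%), at 78 in male KO cells (8.13%, 6.56 to 10%) and at 39 in WT (4.06%, 2.99 to 5.51%). Over all autosomal WT rows the shares were 27.2, 13.2 and 9.16%. Regions of 5 to 10 kb were close to the broad ones, at 22.9, 8.67 and 4.51%. H3K27me3 covered at least 50% of 74 broad regions in female KO cells (7.71%), 17 in male KO cells (1.77%) and 8 in WT (0.833%), against 18.5, 9.24 and 6.69% of all rows. The 5 to 10 kb regions lay between, with 10.4, 3.42 and 1.33%. No H3K27me3 was found in any line at 747 broad regions (77.8%), against 71.6% of all rows. The middle of the region was under H3K27me3 in 36.2% of the overlapped broad regions in female KO cells, 21.8% in male KO cells and 20.5% in WT, against 44.2, 38.6 and 28.4% of the overlapped 5 to 10 kb regions and 68.6, 71.0 and 73.6% of all overlapped narrower ones. This share was lower the wider the class of regions. An overlap at the end of a wide region misses its middle more easily, and that part was not tested. In the profile from the border, H3K27me3 of female KO cells lay over 18.5% of ends at 9.9 kb outside and 9.38% at 2.5 kb inside.

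Counted by any overlap, broad regions took part in the wider H3K27me3 lists of the KO lines about as often as other H3K4me3 regions. H3K27me3 was present in female KO cells and absent from WT at 169 broad regions (17.6%), against 18.7% of all rows, and present in male KO cells and absent from WT at 41 (4.27%), against 5.57% of all rows. These shares are near the background, so they say nothing particular about broad regions, and a wider region meets any overlap more easily. By bases, H3K27me3 lay over 9.01% of broad regions in female KO cells, 2.71% in male KO cells and 1.20% in WT. Over all rows these shares were 15.1, 6.35 and 3.98%, and over 5 to 10 kb regions 11.9, 3.99 and 1.73%. The autosomal H3K27me3 lists covered 329 Mb in female KO cells and 237 Mb in male KO cells, against 145 Mb in WT. Both comparisons share the WT list. H3K27me3 was in both KO lines and not in WT at 36 broad regions (3.75%), against 5.04% of all rows, and in WT and neither KO line at 1 (0.104%), against 0.537% of all rows. Taken line by line, it was in WT and not in female KO cells at 1 broad region (0.104%, against 0.75% of all rows) and in WT and not in male KO cells at 2 (0.208%, against 1.56% of all rows).

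H3K27me3 on broad regions shared bases with H3K27ac to an extent near that of all H3K4me3 regions in female KO cells and WT. In male KO cells the extent was below that of all regions, as it was for 5 to 10 kb regions. At the 198 broad regions with both marks in female KO cells, 87.8% of the H3K27me3 bases were also in the H3K27ac list, 911 kb in sum. In male KO cells 77 broad regions carried both marks and 52.0% of the H3K27me3 bases were shared. In WT there were 38 such regions and 34.8% of the bases were shared. Over all rows with both marks the shares were 85.1, 62.9 and 37.8% in female KO, male KO and WT cells, and over 5 to 10 kb regions 82.8, 55.8 and 31.1%. H3K27ac, with or without H3K27me3, covered 95.6, 88.1 and 78.4% of the bases of broad regions in these lines. Over all rows it covered 83.4, 74.4 and 61.4%. Both marks covered at least 50% of 61 broad regions in female KO cells (6.35%), 9 in male KO cells (0.938%) and 4 in WT (0.417%), against 7.73, 3.27 and 0.336% of all rows. Lists of regions cannot tell whether shared bases come from the same nucleosomes, the 2 alleles or different cells of the culture.

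Apart from the 3 regions described above, the members with the most H3K27me3 in both KO lines and none in WT were on chromosomes 14 and 10. At chr14:58687201-58698000, H3K27me3 covered 10.8 kb in female KO cells and 10.2 kb in male KO cells. H3K4me3 covered 7.0 kb of this region in female KO cells and 8.8 kb in male KO cells, against 10.8 kb in WT, while H3K27ac covered none, 8.4 kb and 8.0 kb of it in female KO, male KO and WT cells. At chr10:126620601-126637600, H3K27me3 covered 10 kb in female KO cells and 6.8 kb in male KO cells of a region of 17.0 kb. There H3K27ac covered 10.8 and 7.0 kb in female and male KO cells, against 6.6 kb in WT. H3K4me3 covered the full 17.0 kb of it in female KO cells and 10.2 kb in 3 pieces in male KO cells.

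A few broad regions carried H3K27me3 in WT already. The longest stretch was 9.0 kb of a 12.0 kb region at chr3:89117401-89129400, where the female KO and male KO lines covered the full 12.0 kb. H3K27ac was absent from it in female KO cells and covered 11.2 kb in male KO cells, against 9.8 kb in WT. At chr11:74978801-74994200 the H3K27me3 lengths were 8.0, 8.6 and 8.0 kb in female KO, male KO and WT cells. At chr5:148109001-148119600 they were 10.6, 7.8 and 7.8 kb, and at chr10:126945001-126965000 they were 20, 15.2 and 7.6 kb. A region of 12.2 kb on chromosome 18 had 12.2, 11.4 and 8.2 kb. H3K4me3 covered at least 7.4 kb of each of these in both KO lines. The 39 broad regions with H3K27me3 in WT had a median of 157 H3K4me3 reads per kb there, against 184 in the 921 without it.

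Members differed among themselves with their WT density. The 124 broad regions below the median density of all rows had at least 50% H3K4me3 in 87.9% of cases in female KO cells and 76.6% in male KO cells, against 97.7 and 96.8% of the 836 denser members. They also had less H3K27ac, with at least 50% covered in 93.5% in female KO cells, 80.6% in male KO cells and 72.6% in WT, against 98.8, 96.7 and 89% of the denser members. H3K27me3 went the other way. It covered at least 50% of 20.2% of the low-density members in female KO cells, 7.26% in male KO cells and 4.03% in WT, against 5.86, 0.957 and 0.359% of the denser ones. The 5 to 10 kb regions showed the same order, with H3K27me3 at 22.5% of low-density and 7.31% of denser regions in female KO cells. The median width was 12.0 kb in both groups of members. Low density was seen in 19 of the 196 members of 15 kb or more and in 105 of the 764 under 15 kb.

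Members with little H3K4me3 in a KO line differed in the other marks of that line, as did 5 to 10 kb regions. In female KO cells, the 34 members under 50% covered by H3K4me3 had at least 50% H3K27ac in 61.8% of cases and at least 50% H3K27me3 in 52.9%. The 926 others had 99.5 and 6.05%. Among 5 to 10 kb regions the corresponding values were 54.3 and 41.5% of those under 50%, against 94.7 and 9.15% of the others. In WT, H3K27ac covered at least 50% of 97.1% of the same 34 members and 86.5% of the 926, and H3K27me3 covered none of the 34. In male KO cells, the 56 members under 50% had H3K27ac in 76.8% and H3K27me3 in 7.14%, against 95.7 and 1.44% of the 904 others. Among 5 to 10 kb regions these were 65.6 and 6.62%, against 87.5 and 3.26%. The H3K4me3, H3K27ac and H3K27me3 libraries of a line share its cells.

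The share of H3K4me3 regions that were broad varied between chromosomes. It was highest on chromosome 19, with 63 of 531 WT rows (11.9%, 9.38 to 14.9%), and on chromosome 17, with 77 of 748 (10.3%). It was lowest on chromosome 4, with 19 of 968 (1.96%, 1.26 to 3.05%), against 6.21% over all autosomes. The KO lists had chromosome 19 high as well, with 23.9% of regions at 10 kb or more in female KO cells and 3.25% in male KO cells. On chromosome 4 the female KO list had 138 such regions (14.5%) and the male KO list 22 (2.09%), against 19 in WT. It was the only autosome on which the male KO share was above the WT share, but the male KO share lay within the WT interval. Narrower regions of chromosome 4 had 0.966, 0.839 and 0.902 times the median density of all narrower regions in the lists of female KO, male KO and WT cells. On chromosome 19 these ratios were 1.13, 1.1 and 1.13. Chromosomes 1 and 15 had WT ratios below that of chromosome 4, at 0.892 and 0.895, with 5.25 and 8.16% of WT rows broad. A link between density and the share of broad regions was not tested.

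**Figure D5:**
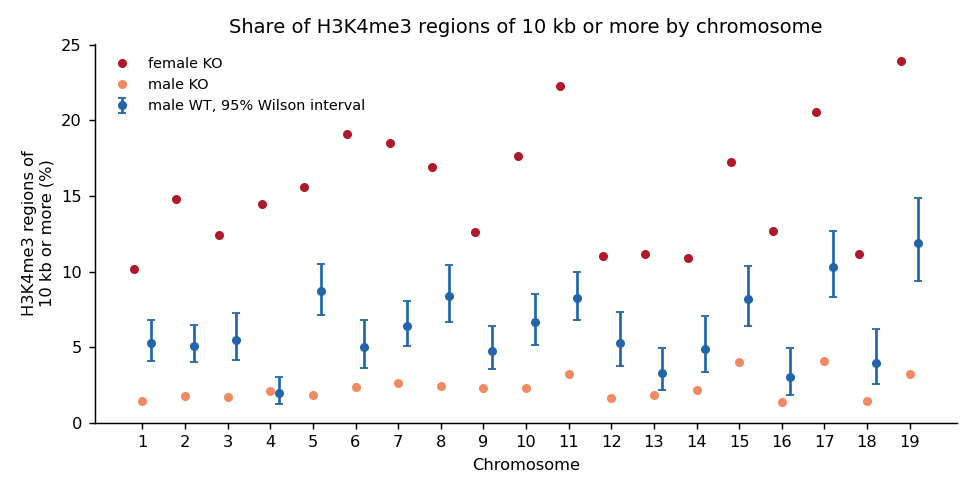
Share of autosomal H3K4me3 regions of 10 kb or more (vertical axis, %) on each chromosome in the lists of female KO, male KO and WT cells, with 95% Wilson intervals for WT. In WT chromosome 19 stands highest at 11.9% and chromosome 4 lowest at 1.96%, where the male KO point lies at 2.09%.

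Broad regions lay closer to other H3K4me3 regions than narrower ones did. The gap to the nearest WT H3K4me3 region had a median of 9.2 kb for broad regions and 20 kb for narrower ones. In 177 broad regions that gap was under 2 kb (18.4%), against 11.6% of narrower regions. From a broad region to the nearest other broad region the median gap was 174 kb, and 307 of the 960 had another one within 50 kb (32.0%). Whether broad regions are grouped among themselves was not tested. No gene was placed at these positions.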

How the data were processed

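The 9 ChIP-seq libraries comprise 1 per mark and line. Per the submitters' processing notes, Bowtie 1.1.2 and SICER 1 were used with mm9. The authors' deposited lists, 1 per library, give chromosome, start, end and a whole number, used as the count of reads per region. Without a header, this meaning of the fourth column was taken from its values and from SICER's output format. The control, the error threshold of the calls and the total of mapped reads: not given in the sources used here.

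Lists were laid on bins of 200 bp with numpy 2.4.6 and pandas 2.3.3 under Python 3.11.15, intervals came from scipy 1.17.1 and plots from matplotlib 3.10.9. Width is end + 1 - start, positions are 1-based, and a count was spread evenly over its region. No row was filtered. Coverage of at least 50% of a row was the main threshold, and any overlap counted as presence. The depth-scaled lists multiply counts by the ratio of reads in bins shared by the 3 lists of a mark and keep rows at or above the 5th percentile of density of the shallowest list, which was kept whole. The overlap step (covered length, number of regions met and widest region met) was tested on simulated regions planted at members. The other steps were not tested this way. Gene tables of a different build were not used, so no gene or sequence is given. Members, alternatives and the rule for named regions (extremes of width, density and each mark) were chosen with earlier results of these data known.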

Additional observations from a re-analysis of the deposited data

Results flagged for a closer look

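The number of autosomal H3K4me3 regions of 10 kb or more moved in opposite directions in the KO lines relative to WT. The female KO list had 1169 more than WT, and the male KO list differed from WT by -578. The difference was not tested, since each line has 1 library, and the reads in H3K4me3 regions had the same order as the numbers of wide regions.

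Outside the autosomes, the WT H3K4me3 list held 5 regions of 10 kb or more, all on chromosome X, which were not among the members. They spanned 10 to 16.4 kb at 93.0 to 170 reads per kb. The widest lay from 11653801 to 11670200.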

How the results depend on the processing

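No paired analysis was possible because each group has 1 library. Shares are compared with the 95% interval of the reported value, and 50 of 74 values under the alternatives lay within it or, for the number of members, within 1.5 times. With any overlap in place of 50%, H3K4me3 was present at 98.5% of members in female KO cells and 99.6% in male KO cells. H3K27ac was then at 99.0, 99.8 and 99.7% and H3K27me3 at 21.6, 8.13 and 4.06% in female KO, male KO and WT cells. At the middle bin, H3K4me3 and H3K27ac of male KO cells were at 90.1 and 92.9%. With rows at or above the median count of each list, H3K4me3 was at 92.7 and 84.6% in female and male KO cells and H3K27ac at 96.0, 91.9 and 80.9% in female KO, male KO and WT cells. Of the 196 members of 15 kb or more, a KO region of 10 kb or more met 90.8 and 61.7% in female and male KO cells, and H3K27ac was at 99.0% in female KO cells and 89.8% in WT. With rows closer than 1 kb merged, male KO cells had H3K4me3 at 92.2% and regions of 10 kb or more at 38.5%. With as many of the widest KO rows as members, chosen after seeing the data, each KO line met 58.3%, though not all the same members. Depth-scaled lists and the omission of chromosome 4 left each share of the members within its interval. Several of these values could move little or not at all. The shallowest list of each mark was kept whole, male KO for H3K4me3 and WT for H3K27ac and H3K27me3. Scaling drops sparse rows and shortens no region, and chromosome 4 holds only 19 of the 960 members. All of these depth-scaled and chromosome 4 values are counted among the 50. Shares of narrower regions moved more for H3K27me3 of female KO cells at 50% coverage. With depth-scaled lists that share went from 10.4 to 8.18% of 5 to 10 kb regions and from 19.2 to 14.6% of all narrower ones. For members it went from 7.71 to 6.98%. Reads in called regions differ between lists, and the part of sequencing depth in the widths was not tested.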
